A study of Mus musculus with 15 samples.

Results

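Gldc-type nuclei are barcodes from micropunches of the dorsal hippocampal formation (dHF) that were picked by transcripts of astrocyte genes, of Gldc and of the long non-coding RNA genes Gm6145 and Gm20713. A barcode was counted as a member when it had at least 500 genes detected and at least 10 unique transcripts (UMIs) of Slc1a2, Slc1a3 and Gpc5 together, no UMI of Gad1, Gad2 or Thbs4, and at most 1 UMI of Slc17a7, which together form the astrocyte gate. It also needed at least 2 UMIs of Gldc, Gm6145 and Gm20713 together, and more of these than of Slc6a11, Etnppl and Lrig1 together. This rule held for 6095 of the 133236 barcodes with at least 500 genes, or 4.57%, and for 47.9% of the 12713 barcodes in the gate. The mirror rule, with Slc6a11, Etnppl and Lrig1 leading, picked 2883 nuclei, which are called the Slc6a11 type, and 3735 gated nuclei fell in neither type.

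Single-nuclei RNA sequencing (snRNA-seq) had been run on dHF micropunches of 15 adult female C57BL/6J mice, with 4 punches of each mouse pooled into 1 library. Per the study's methods the punches also took in some cortex, thalamus and ventral hippocampus, so the place of a nucleus within them is not known. The labels give 6 NP, 4 ControlPP and 5 StressPP mice. Read with the study's text, NP mice were nulliparous virgins. ControlPP mice were reproductively experienced and had mated, given birth and reared pups. StressPP mice were reproductively experienced and also had scarce nesting material and daily separation from their pups late in the postpartum period. All mice were wild type, the virgin mice were matched in age, and no treatment or allele is given that all groups share. Batch 1 held 2 NP mice and 1 StressPP mouse, while in batches 2 and 3 there were 2 NP, 2 ControlPP and 2 StressPP mice apiece, so batch 1 had no ControlPP mouse. The study's methods state that every group was present in each processing batch. Libraries had 40602582 to 96211264 UMIs, and the members of a mouse had 509505 to 2866580 UMIs in sum and a median of 2804 to 5909 UMIs per nucleus. Any pair of libraries shared 6 to 47 barcode sequences, at most 0.461% of the smaller library, and 2 sequences were members in more than 1 library.

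Astrocytes clear glutamate and potassium from the space around synapses, and Slc1a2 and Slc1a3 encode their main glutamate transporters. Gldc encodes glycine decarboxylase, the enzyme that starts the breakdown of glycine in the mitochondrial glycine cleavage system, whereas Slc6a11 encodes a GABA transporter. Astrocytes of the telencephalon keep transcription factors of forebrain patterning such as Lhx2 and Emx2, while astrocytes of more caudal regions keep others such as Irx2 and Irx5.

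Marker lists did not put every member with the astrocytes. In 4679 members (76.8%), a list of 14 astrocyte genes had over 2 times the UMIs of each of 10 lists for other cell types, and these are called astrocyte-dominant members. The gate had required 3 genes of that list (Slc1a2, Slc1a3 and Gpc5), which gave 75.2% of its UMIs in members, so the count rests largely on values the rule used. With these genes left out, an addition chosen after the data were seen, the other 11 astrocyte genes had over 2 times the UMIs of each other list in 4129 members (67.7%), all of them astrocyte-dominant, and more UMIs than each other list in 4459 (73.2%). The other 1416 members (23.2%) were led by the list for oligodendrocyte precursor cells (OPCs) in 874 nuclei, for excitatory neurons in 406, for oligodendrocytes in 103, for GABAergic neurons in 21, for choroid plexus in 11 and for ependymal cells in 1. The OPC list (Pdgfra, Cspg4, Vcan, Lhfpl3 and Tnr) had at least 5 UMIs in 1441 members (23.6%). Pdgfra, the receptor that marks OPCs, had 296 CPM (the UMIs of a gene summed over nuclei and scaled to the same total in every mouse, as the mean over mice) in the members that were not astrocyte-dominant and 6.15 CPM in those that were. As a gene of the OPC list, it was used to sort the members, so this gap follows in part from the sorting. The share of astrocyte-dominant members ran from 65.95% in NP mouse 63 to 89.1% in NP mouse 31. Results are therefore given for all members and, as an addition chosen after the data were seen, for astrocyte-dominant members.

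**Figure D1:**
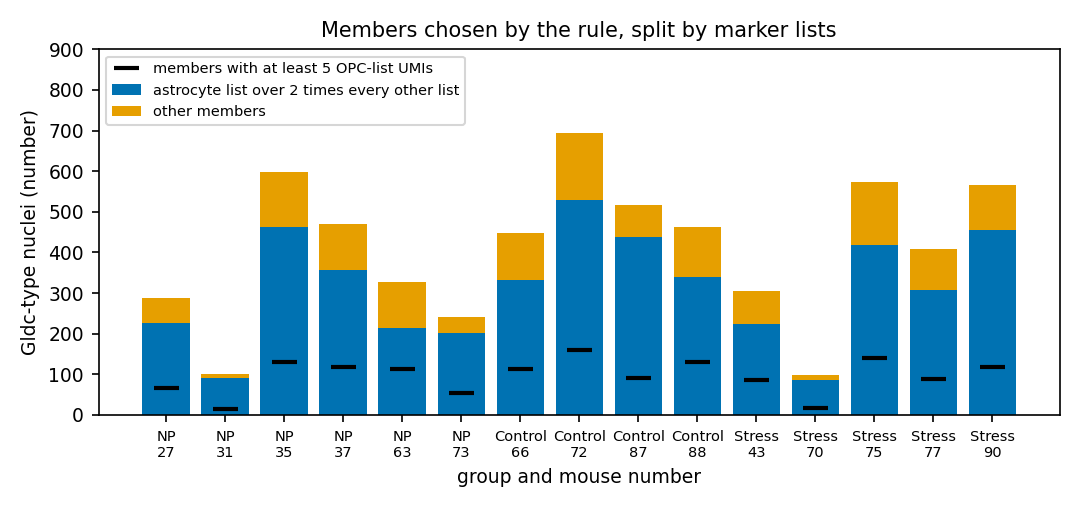
Number of Gldc-type nuclei per mouse (y axis, nuclei), with astrocyte-dominant members in blue and the other members in orange. The number of members ran from 99 in StressPP mouse 70 to 693 in ControlPP mouse 72, and every mouse had members of both kinds.

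The marker that names the type was not the one that picked most of its members. Of the 48929 UMIs behind the member sum, Gldc gave 14.5%, Gm6145 gave 30.8% and Gm20713 gave 54.8%. A Gldc UMI was found in 52.6% of all members and in 62.7% of astrocyte-dominant members, against 12.4% of Slc6a11-type nuclei. In the oligodendrocyte gate, which should lack the gene, the share was 1.06% at a median of 2873 UMIs, and the median over mice was 4001 UMIs in members. With each nucleus thinned to 1000 UMIs, which left out 15 members, 5 Slc6a11-type nuclei and 107 gated oligodendrocytes as too shallow, a Gldc UMI was found in 23.0%, 3.54% and 0.269% of them. Gm6145 had a UMI in 74.5% of members, 91.0% of astrocyte-dominant members and 80.4% of Slc6a11-type nuclei, and after thinning in 42.9% of members and 40.8% of Slc6a11-type nuclei.

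Most members that were not astrocyte-dominant were picked by Gm20713. Among the members that were not astrocyte-dominant, 70.3% met the sum with Gm20713 alone, with no UMI of Gldc or Gm6145. On GRCm38, Gm20713 (chr14:115788144-115871278, minus strand, processed transcript) lies wholly within the span of Gpc5 (chr14:115092215-116525179, plus strand), a glypican of the gate that was also among the highest genes of the members. Gldc (chr19:30098447-30175429, minus strand) and Gm6145 (chr14:105621015-105643725, minus strand) lie elsewhere. Counts of Gm20713 per Gpc5 count ran from 0.0144 in NP mouse 31 to 0.147 in ControlPP mouse 72. Tsix and Xist are another pair of genes on opposite strands, with 0.0341 Tsix counts per Xist count in StressPP mouse 70, 0.0425 in NP mouse 31 and 0.654 in ControlPP mouse 72. The order of mice by the ratios was not the same throughout, since StressPP mouse 90 had 0.404 Tsix per Xist and 0.0674 Gm20713 per Gpc5, and StressPP mouse 75 had 0.280 and 0.115.

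Nuclei just inside and just outside the rule are given as a description, since the bins were cut on counts of the same genes. The 642 members with a sum of exactly 2 had 37.1 CPM of Gldc (mean over mice), while the 742 gated nuclei with a sum of 1 and none of the other 3 genes had 19.3 CPM. The 464 members whose sum passed the other sum by 1 had 109 CPM of Gldc and 442 CPM of Slc6a11. The 290 gated nuclei with equal sums had 89.5 CPM of Gldc and 680 CPM of Slc6a11. Scrublet placed 605 members (9.93%) among the top-scoring barcodes for doublets, 317 members had under 2000 UMIs, and none had over 5% mitochondrial UMIs. The number of top-scoring barcodes was set in advance for each library, at 0.8% per 1000 barcodes. The size of the library thus fixed the share among all its barcodes, but not the share among members. The share over all barcodes was not counted here, so the 9.93% is not read as high or low.

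Astrocyte-dominant Gldc-type nuclei had more transcripts of the forebrain factors Emx2 and Lhx2 than Slc6a11-type nuclei and fewer of Irx2, Irx5 and Pax3. The genes of this account were picked on the same nuclei, so they are described with no test, as mean CPM ± SD over 15 mice, with astrocyte-dominant nuclei taken in both types. Emx2 had 47.3 ± 11.3 CPM in the Gldc type and 3.23 ± 2.35 in the Slc6a11 type. Lhx2 had 77.3 ± 19.3 against 10.17 ± 5.85 CPM. Both were higher in the Gldc type in 15 of 15 mice, as was Emx2os, the transcript opposite Emx2, at 155 ± 23.9 against 15.4 ± 9.04 CPM. Irx5 had 4.35 ± 2.50 against 32.7 ± 6.69 CPM, Irx2 had 4.20 ± 2.49 against 20.8 ± 7.24 CPM and Pax3, another factor of caudal and dorsal patterning, had 6.85 ± 4.43 against 67.5 ± 35.9 CPM. These were lower in the Gldc type in every mouse. Tcf7l2, another factor on the list for astrocytes outside the telencephalon, had a mean of 395 CPM in all members and is not compared here. That list of 5 genes, which also holds Slc6a11 of the rule, summed to 668 to 957 CPM in astrocyte-dominant members over mice. The list of 4 genes for the telencephalon summed to 200 to 468 CPM in the same members. The region of these nuclei was not tested.

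Other genes with wide gaps between the types had varied roles. Lama3, a laminin chain of basement membranes, had 85.1 ± 15.5 CPM against 6.05 ± 4.49 CPM. Lypd6, a membrane-anchored modulator of Wnt signalling and nicotinic receptors, had 136 ± 27.3 against 13.7 ± 8.29 CPM, and the cadherin Cdh4 had 176 ± 34.8 against 27.8 ± 14.4 CPM. Chrdl1, an astrocyte-secreted protein that acts on synapse maturation, had 24.0 against 3.48 CPM, and Hopx, a homeodomain-only protein also known from radial glia-like cells, had 64.7 ± 16.4 against 5.32 ± 3.03 CPM. On the other side, Lgr6, a receptor for R-spondins, had 21.5 ± 15.9 against 140 ± 46.2 CPM, the homeobox gene Meis1 had 48.6 ± 21.9 against 283 ± 28.0 CPM, and Agt, the precursor of angiotensin, had 24.9 ± 12.8 against 113 ± 35.0 CPM. Of 3820 genes with at least 50 CPM in either type and no place in the rule, 117 were over 2-fold higher in the Gldc type and 121 in the Slc6a11 type, in all 15 mice for 114 and 117 of them.

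**Figure D2:**
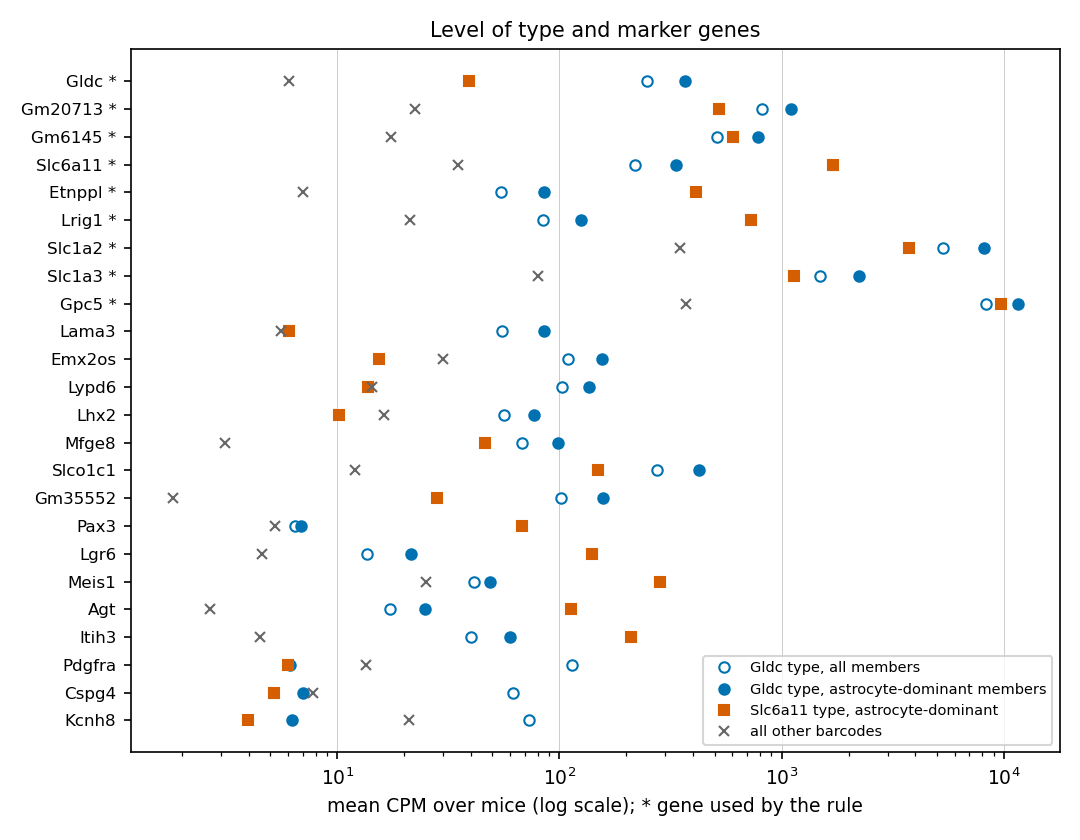
Mean CPM over mice on a log axis for genes of the rule (marked with a star) and other type and marker genes, in all members (open blue), astrocyte-dominant members (filled blue), astrocyte-dominant Slc6a11-type nuclei (orange squares) and all other barcodes (crosses). Lama3, Emx2os, Lypd6 and Lhx2 stand higher in Gldc-type nuclei, Pax3, Lgr6, Meis1 and Agt stand higher in the Slc6a11 type, and the OPC genes Pdgfra, Cspg4 and Kcnh8 fall to the level of the Slc6a11 type once the other members are left out. Pdgfra and Cspg4 are genes of the OPC list used to leave nuclei out of both types, so their fall follows in part from that choice.

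The genes with the highest ratio of all members over all other barcodes are again a description. The long non-coding RNA Gm35552 led the genes outside the rule, with 102 CPM in members and 1.83 CPM in the rest. Dio2, the deiodinase that turns thyroxine into its active form, had 61.2 ± 9.81 CPM against 2.37 CPM in the rest, and Slco1c1, a thyroxine transporter, had 274 ± 31.3 against 12.1 CPM. In astrocyte-dominant members and Slc6a11-type nuclei, Dio2 had 91.3 and 46.2 CPM and Slco1c1 had 424 and 149 CPM. Acsbg1, which activates long-chain fatty acids, had 209 ± 31.8 against 9.15 CPM, and Gli3, a transcription factor of Hedgehog signalling, had 341 ± 55.3 against 15.7 CPM. Acsbg1 and Gli3 are genes of both types, since astrocyte-dominant Slc6a11-type nuclei had 392 and 435 CPM of them and astrocyte-dominant members had 321 and 524 CPM.

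Genes of glutamate and GABA handling also differed in level between the types. Glul, the glutamine synthetase that acts on glutamate after uptake, had 441 ± 65.5 CPM against 305 ± 47.3 CPM, higher in 15 of 15 mice. Slc1a2 and Slc1a3 had 8094 ± 882 and 2224 ± 253 CPM against 3743 ± 271 and 1141 ± 106 CPM, but the gate had used their counts. The GABA transaminase Abat had 151 ± 20.4 against 293 ± 39.8 CPM. Abat was lower in the Gldc type in every mouse, as was the GABA-B receptor subunit Gabbr2 at 144 ± 40.9 against 649 ± 85.0 CPM. Grm3, a glutamate receptor of astrocytes, had 1572 ± 228 against 914 ± 129 CPM.

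Other genes of the glycine cleavage system, which the rule did not use, had near levels in both types. Gcsh, which carries the glycine-derived group, had 8.72 and 8.91 CPM in the Gldc and Slc6a11 types, Amt, the aminomethyltransferase, had 14.9 and 14.8 CPM, and Dld, the lipoamide dehydrogenase, had 28.7 and 28.3 CPM. Gldc itself, a gene of the rule, had 368 ± 63.6 against 39.2 ± 10.6 CPM. The glycine transporter Slc6a9 had 29.2 ± 11.3 CPM in the Gldc type and 130 ± 23.0 CPM in the Slc6a11 type, while Psph, the last step of serine synthesis, had 28.6 ± 7.16 against 16.3 ± 6.42 CPM.

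Among genes of potassium and bicarbonate transport, the inward rectifier channel Kcnj10 had 144 ± 35.0 against 328 ± 54.3 CPM and the bicarbonate transporter Slc4a4 had 2196 ± 243 against 4003 ± 313 CPM, both lower in the Gldc type in every mouse. The water channel Aqp4 (264 ± 46.4 against 311 ± 47.2 CPM) and the connexin Gja1 (344 ± 72.9 against 333 ± 71.1 CPM) had ranges that overlapped between the types. Gfap, an intermediate filament that rises in reactive astrocytes, had 98.8 ± 13.5 against 21.6 ± 11.5 CPM. Hsd11b1, which regenerates active corticosterone, had 75.1 ± 18.6 against 36.0 ± 10.7 CPM, while Nr3c1, the glucocorticoid receptor, had 221 ± 25.9 against 261 ± 36.0 CPM. The dopamine receptors Drd1 and Drd2 had 1.00 and 2.59 CPM in all members and did not reach the level for a test, whereas Maob, a monoamine oxidase of astrocytes, had 104 CPM in both types.

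The gated nuclei with Thbs4, which the rule leaves out, came to 776, with at least 10 in 14 mice. Of genes that the rule did not use, they had 61.2 CPM of Lama3, 79.1 CPM of Lhx2 and 36.7 CPM of Emx2, where all Gldc-type members had 55.4, 56.2 and 31.8 CPM. Against the astrocyte-dominant members described above, the nuclei with Thbs4 had less Lama3 and Emx2 and near levels of Lhx2. The order for Lama3 and Emx2 thus depends on the set of members. This too is a description, since both classes were picked from the same matrices.

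The share of Gldc-type nuclei varied more within groups than between them. As a percentage of barcodes with at least 500 genes, NP mice ran from 1.50 to 6.60 with a median of 4.20, and ControlPP mice 66, 72, 87 and 88 had 4.42, 6.56, 4.48 and 4.41. StressPP mice 43, 70, 75, 77 and 90 had 3.75, 1.73, 4.52, 4.89 and 6.03. The ranges of the 3 groups overlapped, and the lowest mouse of NP (mouse 31) and of StressPP (mouse 70) were both of batch 1. Means were 4.27% ± 1.89 (SD, n = 6) in NP, 4.97% ± 1.06 (n = 4) in ControlPP and 4.18% ± 1.60 (n = 5) in StressPP. ControlPP minus NP was 0.7002 percentage points (exact two-sided permutation test, p = 0.552), StressPP minus ControlPP was −0.787 points (exact permutation p = 0.413) and StressPP minus NP was −0.0872 points (exact permutation p = 0.939). Within batches 2 and 3, ControlPP minus NP was 0.289 and −0.0999 points and StressPP minus ControlPP was −0.0257 and −0.321 points. StressPP minus NP was −1.33, 0.263 and −0.420 points within batches 1, 2 and 3. The sign of StressPP minus NP turned under several alternatives, without StressPP mouse 70 for instance (0.527 points).

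A share of the astrocyte gate is not a share of astrocytes, since only 8139 of the 12713 gated nuclei were astrocyte-dominant by the same lists. In the Slc6a11 type 90.8% were, and among gated nuclei in neither type 22.5% were. Of the astrocyte-dominant gated nuclei, 57.5% were Gldc type. Of the whole astrocyte gate, Gldc-type nuclei took 43.1% ± 15.5 in NP (n = 6), 51.1% ± 13.3 in ControlPP (n = 4) and 47.0% ± 14.9 in StressPP mice (n = 5). The lowest mouse had 23.2% (NP mouse 31, 95% Wilson interval 19.5 to 27.4) and the highest had 65.6% (ControlPP mouse 72, interval 62.6 to 68.4). These intervals cover counting error only, and the gap between mice of a group was far wider than the intervals. The differences were 7.99 points for ControlPP minus NP (exact permutation p = 0.448), −4.12 points for StressPP minus ControlPP (exact permutation p = 0.683) and 3.87 points for StressPP minus NP (exact permutation p = 0.658). Over the 6 comparisons of shares, the Benjamini-Hochberg adjusted exact permutation p was 0.819 in 5 and 0.939 in 1. In the order above, a single arrangement of the mice made 0.00476, 0.00794 and 0.00216 of all arrangements. The two-sided test doubles the smaller tail, so its p could not come down to these values. Within batches, ControlPP minus NP was 10.5 and −0.706 points in batches 2 and 3, StressPP minus ControlPP was −3.46 and 6.50 points, and StressPP minus NP was −12.5, 7.06 and 5.79 points in batches 1, 2 and 3. StressPP minus ControlPP was 1.52 points without StressPP mouse 70 and 0.699 points without ControlPP mouse 72, and StressPP minus NP was −0.108 points without NP mouse 31 and −0.146 points without StressPP mouse 77.

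The share of the gate differed between batches, as did counts on opposite strands. It averaged 32.7%, 57.6% and 42.4% in batches 1, 2 and 3, where the mean Tsix per Xist was 0.145, 0.508 and 0.210. Across the 15 mice, the share and Tsix per Xist had a Pearson r of 0.912 and a Spearman rho of 0.918 as a description, with an r of 0.912 without ControlPP mice 72 and 88, those farthest from the median. Within batches, r was 0.723 over the 6 mice of batch 2 and 0.934 over the 6 mice of batch 3. The relation was noticed in these data and Gm20713, itself on the strand opposite to Gpc5, gave 54.8% of the member sum, so no p is given, and its cause was not tested.

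With Gm20713 left out of the rule, an alternative added after seeing the data, 3539 members (58.1%) were kept, and 94.3% of them were astrocyte-dominant. The rule without Gm20713 dropped 10.9% of the members of NP mouse 31 and 52.5% of those of ControlPP mouse 72. The share of the gate then ran from 18.3% to 38.7%, with means of 25.6% ± 6.45 in NP, 28.0% ± 2.69 in ControlPP and 28.7% ± 8.35 in StressPP mice. Against Tsix per Xist it had an r of 0.654 and a rho of 0.707 over 15 mice, an r of 0.719 without the same 2 mice, and an r of 0.186 and 0.333 within batches 2 and 3. The share of gated nuclei with a Gldc UMI, at 21.3% to 38.1%, had an r of 0.453 and a rho of 0.457 over 15 mice, an r of 0.584 without those mice, and an r of 0.0888 and 0.0735 within the batches.

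**Figure D3:**
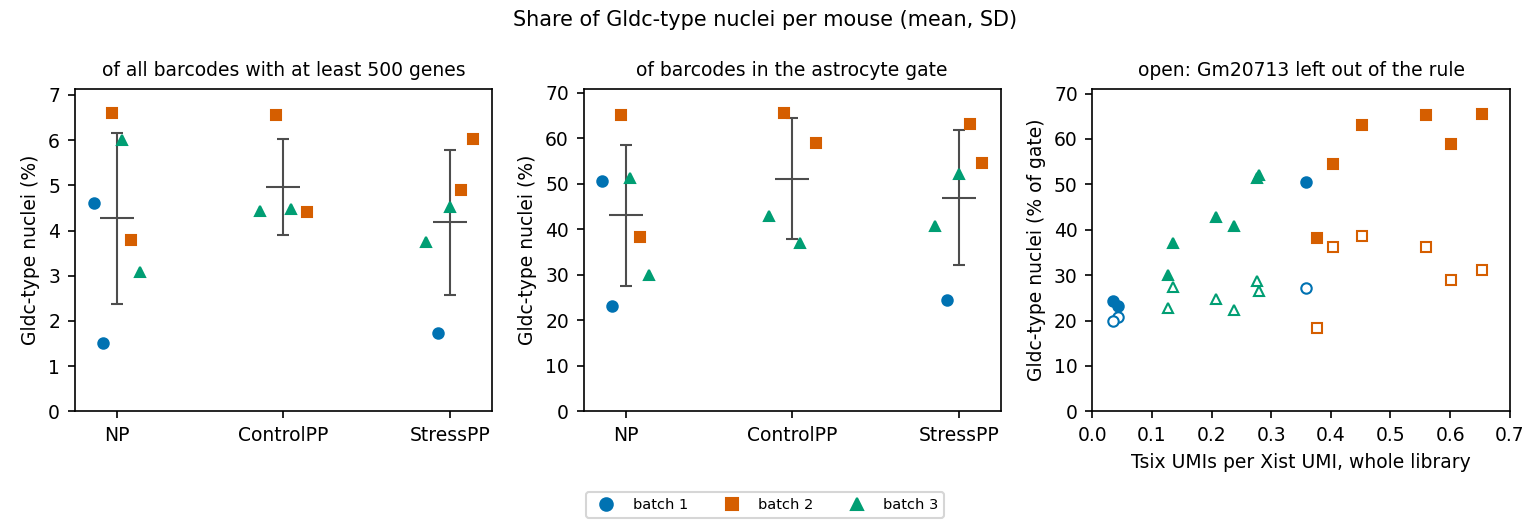
Share of Gldc-type nuclei per mouse (y axes, percent) by group with mean and SD (left and middle), and against Tsix UMIs per Xist UMI in the whole library (right), with colour and shape for the batch. The groups overlap, the filled points on the right climb from 23.2% to 65.6% of the gate, and the open points, for the rule without Gm20713, lie between 18.3% and 38.7%.

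For the comparison of groups gene by gene, counts of the members were summed per mouse and 13068 genes passed the filter on low counts. Reproductive experience changed no gene past the threshold in these nuclei. For ControlPP minus NP, edgeR called 0 of them (0% of genes tested, adjusted p under 0.05), while 443 genes had a p under 0.05 before adjustment, and DESeq2 called 0 as well. On simulated counts for this comparison, with 13068 genes of which 200 were changed, edgeR found 63% of genes changed by a log2 of 1 and 96.5% of those changed by a log2 of 2.

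Of the 8 genes of smallest p in ControlPP minus NP among those with at least 20 CPM, 7 had higher values in ControlPP mice. Zbtb16, a transcription factor that glucocorticoids induce in many cells, differed by 0.70 on the log2 scale (SE 0.17). Pgbd5, a gene derived from a transposase, differed by 0.72 (SE 0.15) in all members and by 0.72 (SE 0.24) in astrocyte-dominant members. Cpne6, a calcium-binding copine of neurons, differed by 0.91 (SE 0.22), Rogdi by 0.69 (SE 0.17), the synaptic kinase subunit Camk2b by 0.51 (SE 0.14), the synaptic scaffold gene Baiap2 by 0.69 (SE 0.19) and Actr3b, of the actin-branching complex, by 0.39 (SE 0.11). Their adjusted p in edgeR was 1.00, and in astrocyte-dominant members Rogdi was at 0.78, Cpne6 at 0.70, Zbtb16 at 0.62, Baiap2 at 0.42, Camk2b at 0.25 and Actr3b at 0.19. The summed level of the 8 excitatory neuron markers was 1632 CPM in NP, 2078 in ControlPP and 1646 in StressPP members, and 1032, 1127 and 828 CPM in astrocyte-dominant members. The part of these markers in the differences was not tested. Enpp2, which makes lysophosphatidic acid, was the one with lower values, at −0.78 (SE 0.20) in all members and 0.02 (SE 0.20) in astrocyte-dominant members. Choroid plexus markers summed to 324 CPM in NP members (median 242, and 671 in NP mouse 31), 136 in ControlPP and 144 in StressPP. Of the Enpp2 counts, OPC-led members held 505 of 1619 in NP and 286 of 914 in ControlPP mice. Members led by the choroid plexus list held 312 and 0 of them. The part of either kind of member in the Enpp2 difference was not tested.

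Postpartum stress changed no gene past the threshold against ControlPP mice. edgeR called 0 genes in StressPP minus ControlPP (0% of genes tested, smallest adjusted p = 0.0719 for Cldn14), with 525 genes at an unadjusted p under 0.05. DESeq2 called 7 genes, with Bfsp2, Cldn14, Mbp, Ptn and Slc12a2 higher and Kcnn2 and Zbtb16 lower in StressPP mice. With batch as a term, edgeR called 2 genes, Bfsp2 and Cldn14, both higher in StressPP mice. In astrocyte-dominant members, edgeR called 0 of 11128 genes, while 429 had a p under 0.05 before adjustment.

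Among genes with at least 20 CPM, Zbtb16 had the smallest p in StressPP minus ControlPP. ControlPP mice 66, 72, 87 and 88 had 157, 175, 216 and 249 CPM, and StressPP mice 43, 70, 75, 77 and 90 had 98.9, 95.9, 89.0, 95.6 and 142 CPM. NP mice ran from 94.4 to 153 CPM with a median of 129. Every StressPP mouse lay below every ControlPP mouse, while NP mice overlapped with StressPP mice. The gene was named for its small p in these same mice, so the gap is no further evidence. The share of all genes without overlap was not counted. StressPP minus ControlPP was −0.95 (SE 0.18) on the log2 scale, with an adjusted p of 0.215 in edgeR that ran from 0.00774 (DESeq2) to 1.00 over the alternatives, and 3 of 30 alternatives took it past the threshold, among them the fit without StressPP mouse 90. The difference was −1.02 (SE 0.19) in astrocyte-dominant members, −0.93 with Gm20713 left out of the rule, −0.84 and −0.98 within batches 2 and 3, and −0.87 in Slc6a11-type nuclei. In all other barcodes the gene had 158 to 355 CPM in StressPP and 275 to 371 CPM in ControlPP mice.

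Kcnn2 and Ptn had differences of like size in all members and in astrocyte-dominant members. Both were named for their small p in these same mice, so a gap between the groups is no further evidence. Kcnn2, a small-conductance potassium channel opened by calcium, had 583, 657, 668 and 657 CPM in ControlPP mice and 491, 476, 440, 476 and 525 CPM in StressPP mice, with no overlap. StressPP minus ControlPP was −0.44 (SE 0.11) in all members and −0.51 (SE 0.12) in astrocyte-dominant members. Ptn, the growth factor pleiotrophin, had 528, 503, 508 and 434 CPM in ControlPP mice and 669, 730, 736, 663 and 598 CPM in StressPP mice, again with no overlap, and differed by 0.43 (SE 0.10) in all members and 0.41 (SE 0.10) in astrocyte-dominant members. NP mice had 475 to 595 CPM of Ptn with a median of 579, and overlapped with ControlPP mice and not with StressPP mice. The adjusted p in edgeR was 0.846 for Kcnn2 and 0.626 for Ptn, and over the alternatives it ran from 0.0317 to 1.00 and from 0.00204 to 1.00, each past the threshold in 1 of 30, that by DESeq2.

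Several genes higher in StressPP mice belonged to myelin, and, pooled over mice, more members were led by the oligodendrocyte list in StressPP mice. Such members numbered 26 of 2024 in NP, 20 of 2119 in ControlPP and 57 of 1952 in StressPP mice. This list summed to 1060, 755, 1567, 1604 and 623 CPM in members of StressPP mice 43, 70, 75, 77 and 90. ControlPP members had 459 to 632 CPM of it. The whole libraries of these StressPP mice had 1464, 1441, 2570, 2170 and 1071 CPM, and ControlPP libraries had 1239 to 1874 CPM. The part of the library in this excess was not tested. Mbp, myelin basic protein, had 106, 119, 121 and 92.2 CPM in ControlPP and 267, 161, 418, 338 and 152 CPM in StressPP mice. The log2 difference was 1.25 (SE 0.26) in all members and 0.48 (SE 0.23) in astrocyte-dominant members. Of the Mbp counts, oligodendrocyte-led members held 194 of 1081 in ControlPP and 1424 of 2626 in StressPP mice. Mbp is itself a gene of that list, so these counts and the smaller difference follow in part from how members were sorted. Cldn11, the tight-junction protein of myelin, went from 1.31 to 0.52 and Elovl7, which elongates fatty acids, from 0.99 to 0.09 once only astrocyte-dominant members were used, while the lipid carrier Apod went from 1.21 to 0.90. All 6 genes of the oligodendrocyte list were higher in StressPP at an unadjusted p under 0.05 by edgeR, which 525 of all 13068 genes had in either direction, with a median of 1.07. In astrocyte-dominant members 2 of the 6 were, with a median of 0.44. These members were chosen for low counts of this same list, so the fall follows in part from the choice. Slc12a2, a chloride importer, had 61.2, 58.3, 58.9 and 55.8 CPM in ControlPP and 88.6, 86.6, 91.3, 110 and 71.3 CPM in StressPP mice, a difference of 0.58 (SE 0.12) in all members and 0.40 (SE 0.17) in astrocyte-dominant members.

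Against NP mice, StressPP members had 1 called gene, Cldn14, and it came from few nuclei. edgeR called 1 of 13068 genes (0.00765%), while 329 had a p under 0.05 before adjustment, and DESeq2 called 3. Cldn14, a claudin of tight junctions (chr16:93919031-94008837, minus strand), had 15.2, 3.09, 15.6, 23.4 and 15.6 CPM in StressPP mice and 0 to 4.20 CPM in NP mice with a median of 1.13. The log2 difference was 3.10 (SE 0.47, edgeR adjusted p = 0.0329, and 2.35e-05 to 1.00 over 22 alternatives, past the threshold in 12). The call was lost with batch as a term (3.02), without batch 2 (2.45) or batch 3 (3.18), and without NP mouse 31, 35, 63 or 73 or ControlPP mouse 66, 72 or 88 (2.85 to 3.09). In 8 more alternatives, among them those without StressPP mouse 43, 75, 77 or 90, the gene missed the filter on low counts. StressPP mouse 70, the only one of batch 1, overlapped with NP mice. Of the 155 counts in StressPP mice, 148 lay in 16 of the 57 oligodendrocyte-led members. Astrocyte-dominant members had 4, 6 and 5 counts in NP, ControlPP and StressPP mice, and there the gene was too low for a test and edgeR called 0 of 11128 genes, while 317 had a p under 0.05 before adjustment.

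Nwd2 had the next smallest p in that comparison. The gene was named for that p, so a gap between the groups is no further evidence. It had 29.4 to 95.6 CPM in NP mice with a median of 57.5, and 11.8, 24.8, 17.0, 23.9 and 20.6 CPM in StressPP mice, all of them below the lowest NP mouse. The log2 difference was −1.67 (SE 0.30) in all members, −1.81 (SE 0.41) in astrocyte-dominant members and −1.81 with Gm20713 left out of the rule. The adjusted p was 0.174 in edgeR, and over the alternatives it ran from 0.00120 to 1.00 and passed the threshold in 3 of 30. Members led by the excitatory neuron list held 309 of the 653 Nwd2 counts in NP mice and 78 of the 180 in StressPP mice. Astrocyte-dominant members held 285 and 71 of these counts. ControlPP members had 17.1 to 52.4 CPM of the gene, and 72 of their 298 counts lay in 1 member led by the choroid plexus list. In all other barcodes, Nwd2 had 85.0 to 496 CPM in NP, 91.4 to 101 CPM in ControlPP and 73.2 to 184 CPM in StressPP mice, with means of 266, 96.0 and 118 CPM. The part of neuronal RNA in this difference was not tested.

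The remaining genes of smallest p in StressPP minus NP were Mbp (1.12, SE 0.23), St18, a transcription factor of oligodendrocytes (0.88, SE 0.21), Slain1, which acts on microtubule growth (0.53, SE 0.13), Myo1d (0.62, SE 0.18), Ptn (0.31, SE 0.09), Tle3, a transcriptional corepressor (−0.63, SE 0.17), and Noct, a deadenylase-related clock output (−0.49, SE 0.14). In astrocyte-dominant members Ptn, Tle3 and Noct were at 0.35, −0.50 and −0.57, and Mbp, St18, Slain1 and Myo1d were at 0.65, 0.39, 0.29 and 0.36. Mbp and St18 are genes of the oligodendrocyte list, by which these members were sorted.

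**Figure D4:**
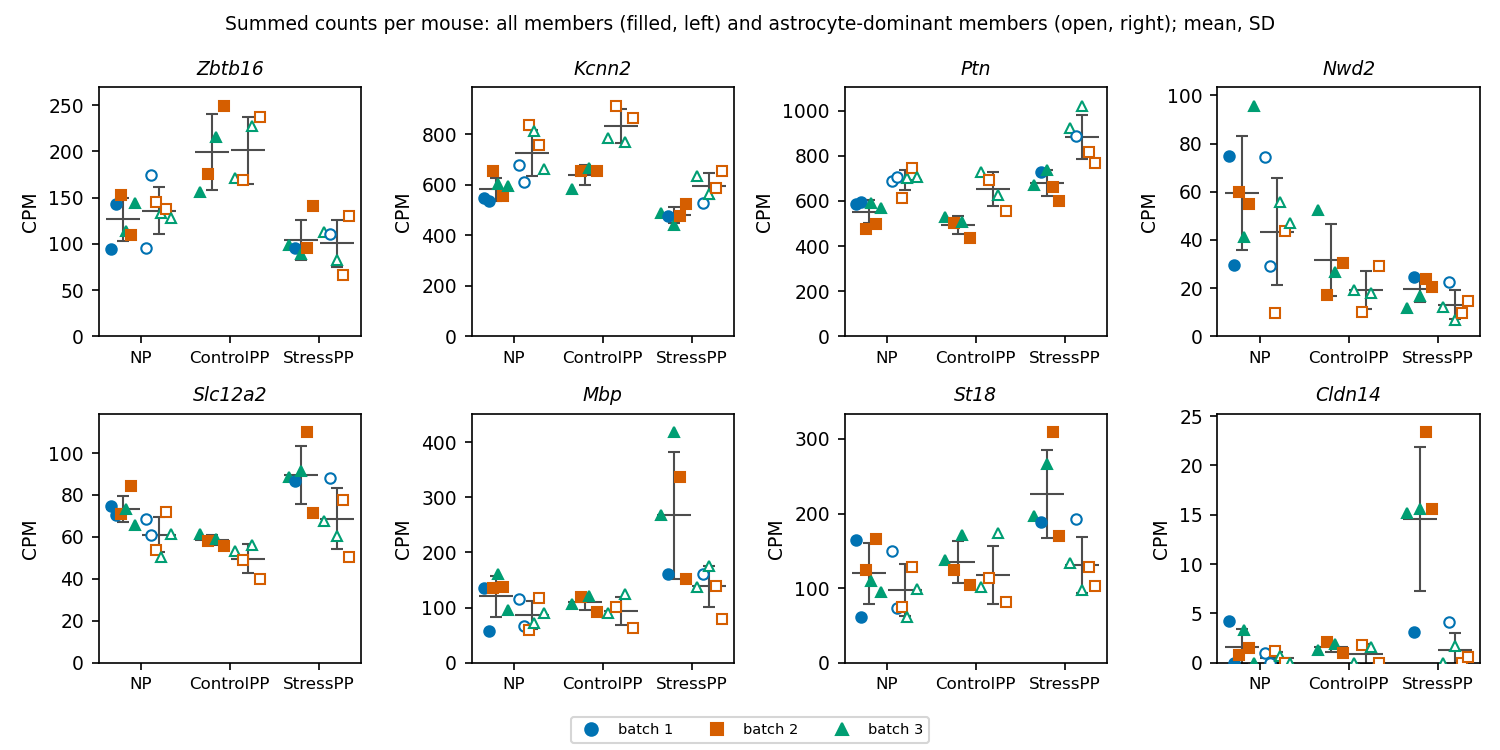
CPM per mouse of 8 genes in all members (filled, left) and in astrocyte-dominant members (open, right), with mean and SD per group and colour and shape for the batch. Zbtb16 and Kcnn2 stand lower and Ptn higher in StressPP than in ControlPP mice in both sets, whereas the StressPP values of Mbp and Cldn14 come down in astrocyte-dominant members. Mbp and St18 are genes of the oligodendrocyte list, by which the members were sorted.

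In edgeR, none of the 15 gene lists had a member past the threshold in any comparison, while DESeq2 called Slc12a2 and Zbtb16 of the potassium and glucocorticoid lists in StressPP minus ControlPP. In edgeR the share of all genes called was 0%, 0% and 0.00765%, and the median of all genes was −0.00 on the log2 scale in each. In glutamate and GABA handling, all 12 genes were tested, with medians of −0.05, 0.08 and −0.02 in ControlPP minus NP, StressPP minus ControlPP and StressPP minus NP. Slc7a11, the cystine-glutamate exchanger, had the widest value in the second of these, at 0.44 (SE 0.15). For glycine cleavage, serine and folate, 14 of 16 genes were tested, with medians of −0.14, 0.18 and 0.06. Gldc was at −0.11, 0.16 and 0.05 and ran from 155 to 387 CPM over mice.

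Genes of the glucocorticoid response lay on both sides of 0. Of 20 genes, 16 were tested, with medians of 0.03, −0.01 and −0.06 in the same order, and 8 of 16 positive in StressPP minus ControlPP. In astrocyte-dominant members the medians of the comparisons with StressPP were −0.13 and −0.11, with 4 and 2 of 16 positive. Fkbp5, which tunes the glucocorticoid receptor, was at −0.56 (SE 0.19) in StressPP minus ControlPP, the sign of Zbtb16, while Sgk1 was at 0.03 (SE 0.15) and Tsc22d3 at −0.23 (SE 0.18). Among hormone receptors, 10 of 14 were tested and the medians were −0.01, 0.03 and 0.03.

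With the marker lists of cell types left aside, astrocyte transcription factors had the widest median of the gene lists in StressPP minus ControlPP. All 24 were tested, with medians of −0.17, 0.26 and 0.01, and 2, 23 and 13 of 24 were positive. In astrocyte-dominant members 22 were tested and the StressPP minus ControlPP median was 0.19, with 19 positive. Hes5, a Notch target, led them at 0.85 (SE 0.31), with 17.7 to 36.98 CPM in ControlPP and 36.7 to 85.8 CPM in StressPP mice, ranges that overlap slightly. The same sign was seen in the 12 genes of glucose, glycogen and lactate, all positive with a median of 0.09, and in 16 of 19 genes of Notch, Shh, BMP and FGF signalling, with a median of 0.14. In astrocyte-dominant members 9 of 12 genes of the glucose list were positive with a median of 0.09, and 12 of 19 of the signalling list with a median of 0.06. Among the marker lists, 13 of 14 astrocyte genes were positive in StressPP minus ControlPP with a median of 0.07. Of the excitatory neuron markers, 0 of 8 were positive, with a median of −0.31, and the oligodendrocyte list had a median of 1.07. In ControlPP minus NP, 3 of 14 astrocyte genes and 7 of 8 excitatory neuron markers were positive. The first and second comparisons share the ControlPP mice, and no test of these lists was made.

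For the other lists, the medians in the order above were −0.21, 0.07 and −0.02 for potassium, water and gap junctions (13 of 13 genes tested) and −0.05, 0.05 and 0.00 for receptors of transmitters (14 of 16). They were −0.06, 0.00 and −0.07 for cholesterol and lipid (16 of 17) and −0.00, 0.07 and 0.02 for synapse organisers and matrix (17 of 18). The clock genes had −0.13, 0.09 and −0.05 (18 of 18). Reactive astrocyte genes had −0.21, 0.11 and −0.14 with 8 of 19 genes tested, dopamine handling had −0.08, 0.13 and −0.08 with 3 of 11, and immediate early genes had 0.29, −0.05 and 0.26 with 5 of 11.

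**Figure D5:**
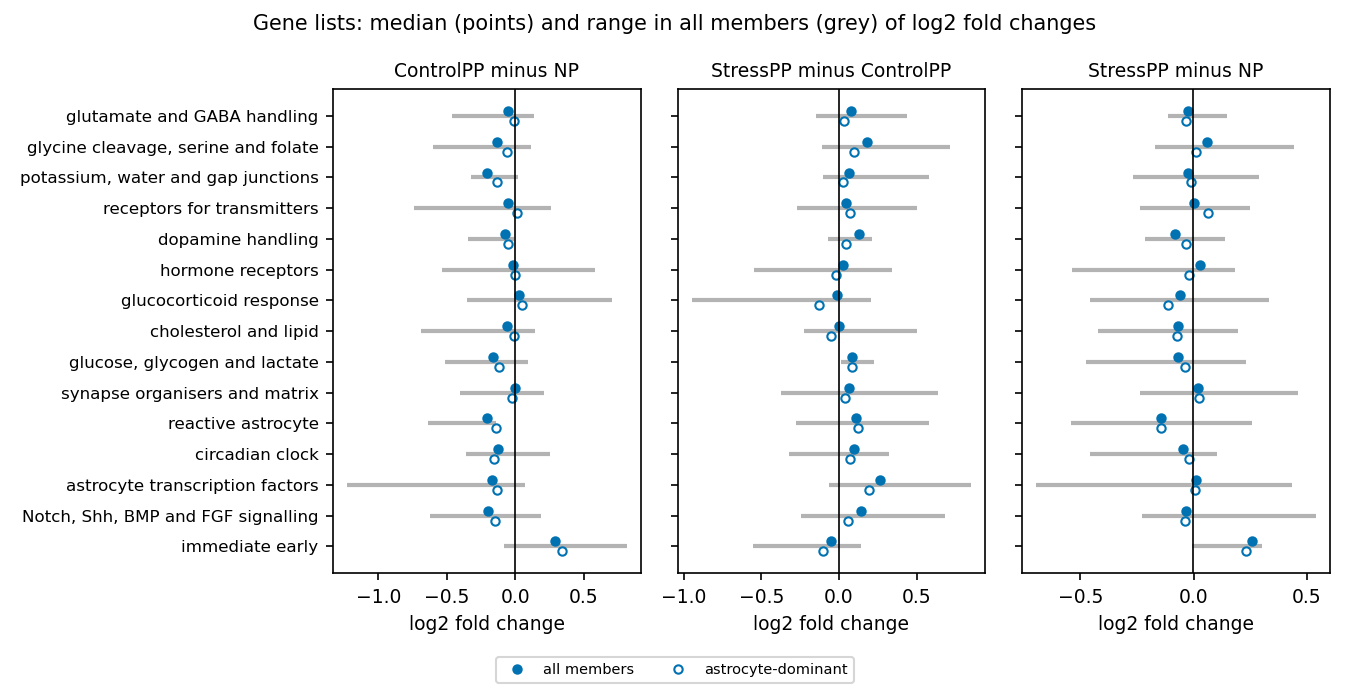
Median log2 fold change of each gene list (x axis) in all members (filled) and astrocyte-dominant members (open), with the range over genes in all members in grey, for the 3 comparisons. Medians lie between −0.21 and 0.29 in all members and between −0.16 and 0.34 in astrocyte-dominant members, and the grey ranges span both signs around 0 apart from the 12 genes of glucose, glycogen and lactate in StressPP minus ControlPP, from 0.01 to 0.22, and, in ControlPP minus NP, the 8 reactive astrocyte genes, from −0.64 to −0.14, and the 3 dopamine genes, from −0.34 to −0.01.

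Whether the group differences were particular to the Gldc type was tested against Slc6a11-type nuclei of the same mice, over 12613 genes. edgeR found 1 gene in ControlPP minus NP, 0 in StressPP minus ControlPP and 1 in StressPP minus NP with a difference between the types, at 507, 447 and 550 genes with an unadjusted p under 0.05. Zbtb16 differed between the types by −0.02 (SE 0.18) in StressPP minus ControlPP, Kcnn2 by −0.04 (SE 0.13) and Ptn by 0.09 (SE 0.16). None of the 3 was therefore shown to be particular to Gldc-type nuclei.

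Across mice, most genes of the members were even. Of 3728 genes with at least 50 CPM on average, the median coefficient of variation was 13.8%, and 33 genes passed 50%. These included choroid plexus genes such as Ttr, the thyroxine carrier transthyretin, with 6.19 to 273 CPM and the highest value in NP mouse 31, and the serotonin receptor Htr2c. They also included Tsix, with 37.1 to 712 CPM and the highest value in ControlPP mouse 72. Gldc had a coefficient of variation of 27.3%, Gm6145 of 13.5%, Gpc5 of 11.7% and Gm20713 of 45.8%, with 208 to 1437 CPM of the last and the highest value again in ControlPP mouse 72.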

How the data were processed

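Per the labels and the study's methods, the authors aligned reads with Cell Ranger (7.1.0 in the labels, 7.0.0 in the file headers) to mm10, and deposited raw UMI counts in filtered matrices. The deposited counts carry no correction for free RNA or doublets. Groups and batches were taken from the labels, and mice served as replicates. The members, gene lists and tests were chosen with earlier results of these data known. Counts were summed per mouse and tested with edgeR 4.0.16 in R 4.3.3 (filterByExpr, TMM, quasi-likelihood test, all 3 groups in 1 fit, Benjamini-Hochberg adjusted p under 0.05), with DESeq2 1.42.0 as an alternative. The difference between types was tested in edgeR with the mouse as a block. Both tools were tested on simulated data. Doublets were scored with Scrublet in scanpy 1.11.5. Named genes were those past the threshold or, where fewer than 8 passed, the 8 of smallest p with at least 20 CPM, and for the description of the type the genes of highest ratio with at least 50 CPM. Bfsp2 and D130079A08Rik were named after their values were seen. Shares were compared with exact permutation tests over mice. Gene positions follow the GRCm38 annotation. Other alternatives varied normalization, filters, doublets, the member rule, batch and mice. Sets of astrocyte-dominant members, the rule without Gm20713 and sets of mice without a batch or without both mice under 110 members were chosen after seeing the data. A few genes are not reported here.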

Additional observations from a re-analysis of the deposited data

Results flagged for a closer look

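In groups of 4 to 6 mice, 1 value stood apart from the rest of its group in 5 of 72 groups looked at, where chance gives about 1 in 20. ControlPP mouse 72 had 6.56% of its barcodes as Gldc-type nuclei, and the other ControlPP mice had 4.41% to 4.48%. StressPP mouse 90 had 142 CPM of Zbtb16, above the 89.0 to 98.9 CPM of the other StressPP mice. NP mouse 31, with 101 members, had 304 CPM of Enpp2 (122 to 182 in the other NP mice) and 11.8 CPM of Myo1d (28.7 to 34.2 in the others). ControlPP mouse 66 had 583 CPM of Kcnn2, and the other ControlPP mice had 657 to 668 CPM.

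The group difference of 2 genes differed between Gldc-type and Slc6a11-type nuclei. For Ttr in ControlPP minus NP, the difference between the types was −3.44 on the log2 scale (SE 0.59, edgeR adjusted p = 0.0440, past the threshold in 10 of 22 alternatives). Members of ControlPP mouse 72 had 20.2 CPM of Ttr where its Slc6a11-type nuclei had 367 CPM, and without that mouse the value was −1.91. In astrocyte-dominant nuclei it was −0.02. Of the Ttr counts of NP members, 382, or 51.3%, lay in 7 members led by the choroid plexus list. Ttr is itself a gene of that list, so this share and the value in astrocyte-dominant nuclei follow in part from the sorting. For Maf, a transcription factor, the value in StressPP minus NP was −1.82 (SE 0.31, edgeR adjusted p = 0.0437, past the threshold in 5 of 22 alternatives), with 9.93 to 15.5 CPM in StressPP members and 13.0 to 31.4 CPM in NP members, against 17.0 to 40.9 CPM and 6.87 to 20.5 CPM in the Slc6a11 type. In astrocyte-dominant nuclei the value was −1.43 and edgeR called 0 genes, while 456 had a p under 0.05 before adjustment. Leaving out any 1 mouse but ControlPP mouse 72 or NP mouse 73 took Maf out of the calls, and the value ran from −2.003 to −1.66 over all mice left out in turn.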

How the results depend on the processing

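No paired analysis was possible because the replicate numbers are mouse numbers that no 2 groups share. The values of single genes were recomputed 786 times: 731 kept direction and side of the threshold, 39 lost and 15 gained significance, and 1 turned sign, the log2 fold change of Enpp2, ControlPP minus NP (0.019 in astrocyte-dominant members). Most of these values were of genes not called at the start. All 39 losses fell on the called values. Cldn14 in StressPP minus NP stayed past the threshold in 12 of 22 alternatives. The type differences of Ttr and Maf stayed past it in 10 of 22 and 5 of 22. Causes were not tested.

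ControlPP minus NP had 0 called genes, and 1 (D130079A08Rik) with Gm20713 left out of the rule. Leaving out mice 1 at a time gave 0 to 0. StressPP minus ControlPP had 0, but 7 with DESeq2, 3 with no filter, 2 with batch as a term, 3 with doublets removed, 1 without batch 1, 1 without both mice under 110 members and 0 to 2 with mice left out. StressPP minus NP had 1, but 3 with DESeq2, 4 with no filter, 2 without both mice under 110 members and 2 (Nwd2 and D130079A08Rik) without Gm20713. It had 0 with batch as a term, a stricter rule, equal nuclei per mouse, without batch 2, without batch 3 and in astrocyte-dominant members, and 0 to 2 with mice left out.

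Differences between the types numbered 1, 0 and 1 in the order above, but 25, 9 and 23 with no filter and 0, 1 and 0 with doublets removed. The stricter rule, astrocyte-dominant nuclei and the rule without Gm20713 each gave 0, 0 and 0, and leaving out mice gave 0 to 1, 0 to 0 and 0 to 1.

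The share of Gldc-type nuclei among all barcodes with at least 500 genes, StressPP minus NP (−0.0872 points), was 0.00726 on the log2 scale, 0.0878 points without batch 3, 0.0567 without Gm20713 and −0.640 to 0.527 with mice left out. Of the gate, StressPP minus ControlPP (−4.12 points) was 1.52 without batch 1 and without both mice under 110 members, 0.716 without Gm20713 and −8.79 to 1.52 with mice left out, and StressPP minus NP was −0.146 to 9.51. With mice left out, the other shares ran from 0.147 to 1.17 (barcodes) and 3.17 to 12.7 (gate) for ControlPP minus NP, and −1.25 to −0.173 (barcodes) for StressPP minus ControlPP. Over all alternatives, ControlPP minus NP ran from 0.0946 to 1.36 points (barcodes) and reached 17.9 points (gate). StressPP minus ControlPP reached −1.27 points (barcodes) and −14.9 points (gate). Mice with few members, 99 and 101 at the least, limit the precision of low genes.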
